A study of Mus musculus with 8 samples.

Results

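Transcripts of mitochondrial ribosomal proteins were measured in donor T cells that had been recovered from the spleen of transplanted mice. The genes were chosen by name: every row of the deposited tables whose symbol starts with Mrpl (large subunit) or Mrps (small subunit) followed by a digit was taken, and no such name contained -ps, the ending of a pseudogene. This gave 78 genes of 25078 rows. Of these, 76 passed the filter on low counts, among 12428 genes tested. The members left out of the tests were Mrpl23 and Mrps36, with 2 to 10 and 1 to 10 counts per library. The names do not always give the subunit: Mrps30 and Mrps18a encode proteins of the large subunit, and Mrps36 encodes a component of the oxoglutarate dehydrogenase complex and not of the ribosome.

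The donors were C57BL/6 mice, either WT or STAT3KO, the latter with floxed Stat3 alleles and Cd4-Cre, a transgene active in developing thymocytes, so that T cells of both lineages lose Stat3. Donor T cells were given together with T cell-depleted bone marrow to lethally irradiated BALB/c recipients, a major histocompatibility complex-mismatched hematopoietic cell transplantation (HCT), and donor-type CD4 and CD8 T cells were sorted from the recipients' spleens on day 6. All 4 groups (CD4 and CD8 T cells of WT donors, CD4 and CD8 T cells of STAT3KO donors) therefore shared the irradiation, the marrow graft and the allogeneic host. The donors' age was not given in the labels. Each group had 2 libraries, each from a pool of several recipients, so p-values measure the spread between pools and not between single animals.

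The mitochondrial ribosome translates the few messenger RNAs encoded by mitochondrial DNA, all of them for subunits of the respiratory chain and of ATP synthase. Its RNAs come from mitochondrial DNA, whereas its proteins are encoded in the nucleus, made in the cytosol and imported. Many of these proteins are homologues of bacterial ribosomal proteins, and others are found only in mitochondria. Activated T cells enlarge their mitochondrial mass and need mitochondrial translation to build respiratory chain complexes as they proliferate. By these classes, the members were 30 large subunit homologues of bacterial proteins, 21 large subunit proteins specific to mitochondria, 16 small subunit homologues, 10 small subunit proteins specific to mitochondria, and Mrps36.

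The libraries held between 20171396 and 23282757 counts, and the members took between 0.241% and 0.310% of them. Summed over each marker list, B cell genes (5 of 5 detected) had 93.2 to 171 CPM (TMM-normalised counts relative to library size) in the CD4 libraries and 38.0 to 55.3 CPM in the CD8 libraries. Most of this was Cd22 (91.7 to 168 and 25.3 to 42.0 CPM), whereas Cd79b was higher in the CD8 libraries (0.898 to 2.47 and 11.5 to 12.9 CPM) and Cd79a and Ms4a1 had at most 0.337 CPM. NK genes (3 of 3) had 19.4 to 29.7 and 59.6 to 90.1 CPM, a difference carried by Eomes (2.27 to 13.5 and 37.9 to 70.2 CPM), since Klrb1c overlapped (15.2 to 18.6 and 14.1 to 26.4 CPM). Macrophage genes (5 of 5) had 15.8 to 55.8 and 40.03 to 100.2 CPM, and 4 of the 5 were higher in the replicate 2 library of every group. The other, Cd68, was higher in the CD8 libraries (8.85 to 17.2 CPM in CD4 and 37.2 to 49.3 CPM in CD8 libraries). Neutrophil and myeloid progenitor genes (5 of 5) stayed between 2.20 and 14.6 CPM and erythroid genes between 0.386 and 5.73 CPM, with 2 of 5 at 0 in every library. T cell genes had 1007 to 1271 CPM. Cd4 had at least 1361 CPM in the CD4 libraries and at most 8.16 CPM in the CD8 libraries, and Cd8a at least 819 CPM in the CD8 libraries and at most 15.9955 CPM in the CD4 libraries. Stat3 was lower in STAT3KO T cells of both kinds (log2 fold change -1.63 in CD4 and -1.72 in CD8, edgeR adjusted p 0.000753 and 0.00536). Libraries with the same replicate number deviated together from their group means (r 0.424 to 0.671 over all genes in the 6 pairs of groups), and the running numbers in the library titles form 2 series that go with the replicate number. What a number shares was not given in the sources used here, so the tests had no term for it, and calls with the number as a block are given beside them.

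The members lie on 17 chromosomes, with 11 of them on chromosome 11, and many start close to a gene on the opposite strand. A start within 1000 bases, pointing away from the member, was found for 29 of 78 members (37.2%) and for 1882 of 12426 genes tested (15.1%). Among these neighbours are Eme1, 48 bases from Mrpl27, Sars2, the mitochondrial seryl-tRNA synthetase, 147 bases from Mrps12, and Fau, 192 bases from Mrpl49. In Mrpl46 and Mrps11, both partners are members, 1 of each subunit. The bases between their starts are shown because both genes are read outward from them (RefSeq, GRCm38.p6, chr7:78783090-78783130, plus strand, 41 bases, 73.2% G or C).
Mrpl46 and Mrps11: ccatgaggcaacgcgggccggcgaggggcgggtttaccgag
In these libraries Mrpl46 had 24.3 to 36.4 RPKM (deposited values, relative to the length of the exons and the depth of the library) and Mrps11 17.6 to 23.2 RPKM. The tests below, without the block, called neither gene.

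Promoters from 250 bases before to 50 bases after the start were at hand for 69 members. The letters CGCATGCG, to which nuclear respiratory factor 1 (NRF1) binds, were in 7 of them (10.1%, against 4.42% of 9838 genes tested that have a promoter in the table), searched on both strands. The ETS letters CCGGAAGT, bound by GABP, were in 12 (17.4% against 9.52%) and the YY1 letters AAGATGGCG in 8 (11.6% against 3.66%). The E-box CACGTG, which Myc can bind, was in 5 (7.25% against 11.6%) and the STAT letters TTCCNGGAA in 2, Mrpl30 and Mrpl50 (2.90% against 1.61%). The NRF1 matches are shown because they include Mrpl17, the member called in STAT3KO CD4 T cells, and Mrpl10, called between CD8 and CD4 T cells in both genotypes. Each line gives 30 bases on the strand of the gene, with the match in capitals (Mrpl32 holds 2 matches).
Mrpl9: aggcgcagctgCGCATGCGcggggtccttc
Mrpl10: gcccagctccaCGCATGCGcatagcggccc
Mrpl17: ccgagttactgCGCATGCGtcctctgagac
Mrpl22: gcctcggactgCGCATGCGtatagtcagcc
Mrpl32: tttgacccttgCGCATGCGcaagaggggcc
Mrpl32: ggcggacttaaCGCATGCGctcagcccgcg
Mrpl39: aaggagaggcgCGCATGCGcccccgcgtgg
Mrps18b: aaacggcccgaCGCATGCGcactgggagca
The match begins 10 bases before the start in Mrpl17, 23 and 86 in Mrpl32, 27 in Mrpl9, 32 in Mrpl22, 124 in Mrpl39, 135 in Mrpl10 and 224 in Mrps18b. In Mrpl39 all 250 bases before the start lie in exons of the GENCODE annotation, so its match lies in annotated exon sequence. Exon bases were counted only for Mrpl39 and Mrpl17. The 250 bases before the start of Mrpl17 (RefSeq, GRCm38.p6, chr7:105811088-105811337, minus strand) are given whole, since this was the member with the lowest p in the STAT3KO comparison of CD4 T cells. Of these bases, 12 lie in exons of the GENCODE annotation, and capitals again mark the NRF1 letters.
Mrpl17: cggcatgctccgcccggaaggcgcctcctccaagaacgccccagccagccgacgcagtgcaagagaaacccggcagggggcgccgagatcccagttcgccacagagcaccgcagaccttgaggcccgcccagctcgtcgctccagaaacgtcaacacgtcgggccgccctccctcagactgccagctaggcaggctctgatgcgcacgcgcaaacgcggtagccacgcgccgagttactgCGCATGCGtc
A match is a description of letters and not of binding.

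Members were well expressed, over a wide range. Their median level was 22.1 RPKM as a mean over the 8 libraries, against 9.91 RPKM for all genes tested, at the 70.8th percentile. Of the 76 tested members, 13 had more than 50 RPKM, 54 had 10 to 50 RPKM and 9 had less than 10 RPKM. The medians of the large and the small subunit were 23.2 and 21.3 RPKM. Mrpl33, a small protein of the large subunit, was highest at 173 RPKM, which was 73.8 times the level of Mrps25, the lowest tested member at 2.34 RPKM. Next came Mrpl24 (100 RPKM), a protein beside the exit tunnel of the nascent chain, Mrpl9 (90.03 RPKM), Mrpl52 (78.9 RPKM) and Mrpl30 (74.1 RPKM). These 5 genes took between 20.2% and 23.6% of the summed RPKM of the members in a library. Mrpl48 (3.33 RPKM) and Mrpl17 (3.40 RPKM) were low on this scale, although each had at least 284 counts in every library, since the deposited tables give them 4965 and 6712 exon bases. Mrps25 likewise has 6065 exon bases there, against 466 in Mrpl33. In CPM, which does not take length into account, the means of tested members ran from 4.70 to 146.

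**Figure D1:**
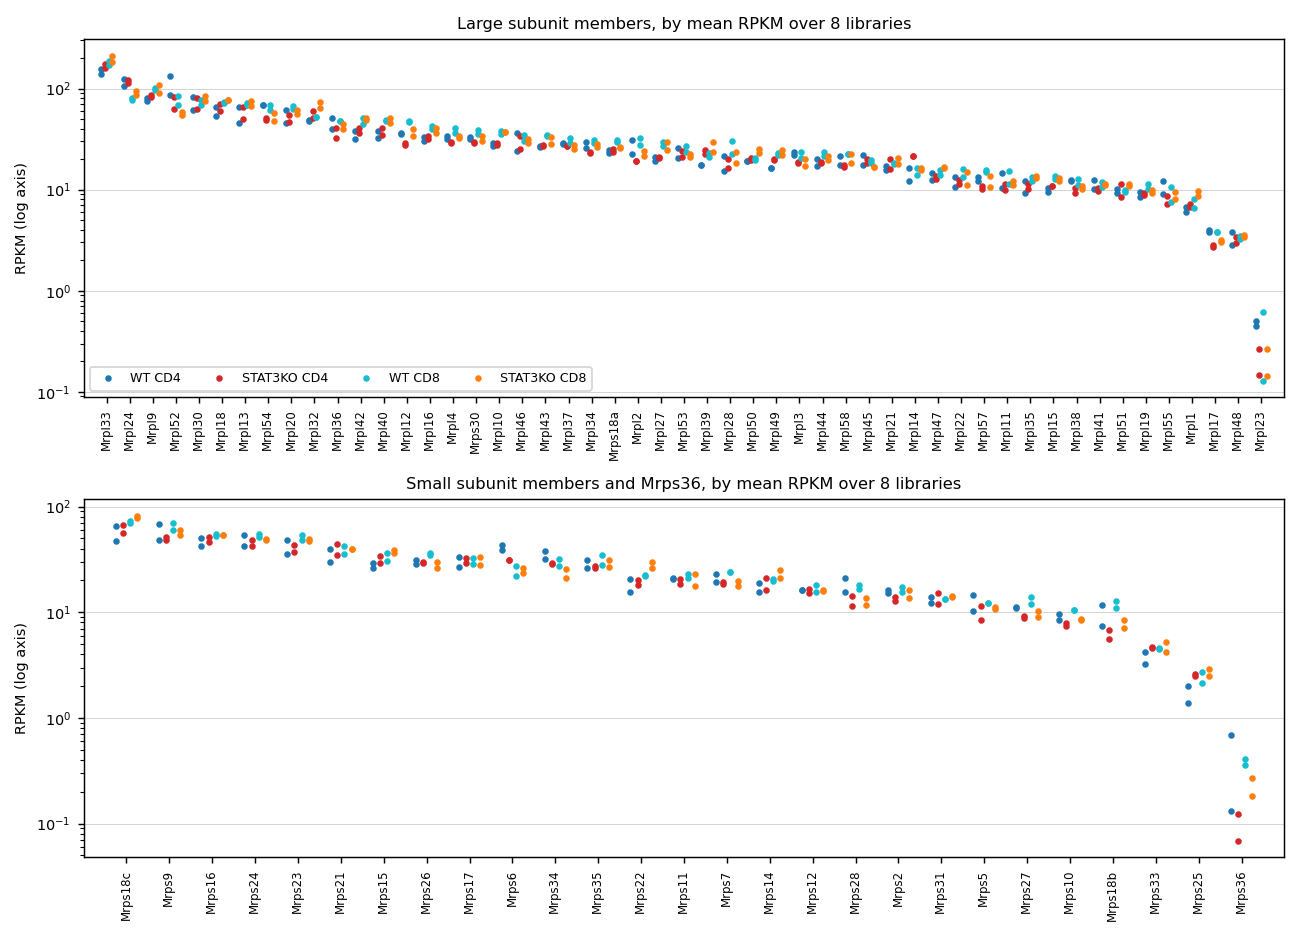
RPKM of all 78 members in the 8 libraries (log axis), large subunit above, small subunit and Mrps36 below, ordered by mean RPKM. Points are libraries and colours are groups: Mrpl33 is highest at 173 RPKM, and Mrpl23 and Mrps36, the members not tested, lie under 1 RPKM.

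Most proteins of the ribosome are present in 1 copy each, while the levels of their transcripts differed. The 3 homologues of bacterial S18 illustrate this. In the classes used here, Mrps18c is counted among the homologues of bacterial proteins, and Mrps18a and Mrps18b among the proteins specific to mitochondria. Mrps18c had 46.7 to 81.9 RPKM, Mrps18a, which sits in the large subunit, 23.3 to 31.1 RPKM, and Mrps18b 5.56 to 12.8 RPKM, so their ranges over the libraries did not overlap. Mrps12, the protein at the decoding centre, kept to 15.3 to 18.1 RPKM, and Mrpl45, which holds the ribosome at the inner membrane, to 16.6 to 21.8 RPKM. The summed RPKM of the large subunit was 2.40 to 2.54 times that of the small subunit in each library. Within a group, the SD of a member's log2 CPM between the libraries had a median of 0.136 and ranged from 0.045 in Mrpl50 to 0.288 in Mrpl28.

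Part of the counts cannot be assigned to members with certainty. Of the 51-base stretches in their annotated transcripts, a median of 2.82% also occurred in transcripts of other genes, on either strand. The share was over 50% in 5 members (Mrpl53, Mrps25, Mrps18b, Mrps34 and Mrpl23), between 10% and 50% in 25, and 0 in 28. The setting used for strand in the counting was not given in the sources used here, so values of these members carry that doubt. Mrpl17, Mrpl54, Mrpl39 and Mrps22, which are described below, had no shared stretch.

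CD4 T cells of STAT3KO donors were set against those of WT donors, which addresses which transcripts depend on donor STAT3 in CD4 T cells during the alloresponse. Mrpl17 was lower in STAT3KO, and no other member of the 76 passed the test without the replicate block. Mrpl17 (chromosome 7, 105803782 to 105811087, minus strand, mm10) encodes a large subunit protein that lies near the exit tunnel. Values were 27.2 and 25.1 CPM in libraries of WT and 19.4 and 18.5 CPM in those of STAT3KO CD4 T cells, so that the groups did not overlap. Its mean fell from 26.2 ± 1.52 to 18.9 ± 0.668 CPM (SD, n = 2), a fold of 0.724 (edgeR log2 fold change -0.47, SE 0.11, adjusted p 0.0326). The call was 0 members higher and 1 lower, while 6.54% and 5.08% of all genes tested were called higher and lower. With the replicate block it was 4 members higher and 9 lower, against 16.5% and 13.7% of all genes tested. Of the B cell markers, Cd22 also differed between these groups. It had 106 and 91.7 CPM in WT and 149 and 168 CPM in STAT3KO CD4 libraries (edgeR adjusted p 0.0946). Cd79b, with at most 2.47 CPM in these libraries, was called higher in STAT3KO (edgeR log2 fold change 1.098, adjusted p 0.0206). So was Eomes, of the NK markers, with at most 13.5 CPM (edgeR log2 fold change 2.03, adjusted p 0.00551). The part of these 3 markers in the result was not tested. In bulk RNA, fewer cells of a type and less RNA per cell cannot be told apart. The call of Mrpl17 held with RLE size factors, total counts, no filter or DESeq2, and was lost with only the 4 CD4 libraries (edgeR adjusted p 0.0919), with limma on log2(RPKM + 1) (adjusted p 0.0565) and without any 1 of the 8 libraries (edgeR adjusted p 0.0513 to 0.186, log2 fold change -0.53 to -0.43).

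The remaining members had small differences in CD4 T cells, to both sides. Log2 fold changes ranged from -0.60 to 0.62, with 39 members above 0 and 37 below, and the median was 0.00496 against 0.0171 for all genes tested. At an unadjusted p under 0.05, 4 members were higher and 9 lower, against 1849 and 1566 of the 12428 genes tested. Libraries of the groups did not overlap for 13 members higher in STAT3KO (17.1%) and 20 lower (26.3%), against 28.5% and 25% of all genes tested. Within the libraries of replicate 1 the median difference of the members' log2 CPM was 0.022, and within those of replicate 2 it was -0.054. Without WT CD4 replicate 1 the median was -0.14, and without WT CD4 replicate 2 it was 0.081, so the balance of the members in this comparison moved with single libraries.

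Several members had low p-values that did not pass the adjustment in the edgeR fit without the replicate block. Mrpl54, which belongs with Mrpl10, Mrpl11, Mrpl12 and Mrpl53 to the stalk that receives translation factors, had 40.9 and 40.2 CPM in WT and 30.6 and 29.3 CPM in STAT3KO (edgeR log2 fold change -0.44, SE 0.12, adjusted p 0.0575). Its groups lay clearly apart, and it was also called with DESeq2 (adjusted p 0.0354) and with total counts (edgeR adjusted p 0.0401). Mrpl12, the stalk protein that occurs in several copies per ribosome, had 35.0 and 35.1 CPM in WT and 27.2 and 29.1 CPM in STAT3KO (edgeR log2 fold change -0.32, SE 0.11, adjusted p 0.119). On the other side, Mrpl39, a mitochondria-specific large subunit protein, had 32.8 and 32.3 CPM in WT and 41.9 and 46.2 CPM in STAT3KO (edgeR log2 fold change 0.44, SE 0.13, adjusted p 0.0676). Mrpl14, a protein at the interface of the subunits, had 10.2 and 7.42 CPM in WT and 13.4 and 13.6 CPM in STAT3KO (edgeR log2 fold change 0.62, SE 0.18, adjusted p 0.0722). For Mrpl49 the values were 28.6 and 28.0 CPM in WT and 34.5 and 35.6 CPM in STAT3KO (edgeR log2 fold change 0.31, SE 0.10, adjusted p 0.0979). None of these 5 members had overlapping groups in CD4 T cells, and all 5 were called with the replicate block (edgeR adjusted p 0.00744 to 0.0448). Of all genes tested, 28.5% were higher and 25% lower without overlap, and 16.5% and 13.7% were called with the block. The 5 were chosen by their low p-values in these same libraries, so neither statement is separate support for a change.

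In CD8 T cells, the same question gave no called member without the replicate block and 11 with it. Log2 fold changes of STAT3KO against WT lay between -0.59 and 0.41, with 32 members above 0 and 44 below, and the median was -0.077 against -0.0071 for all genes tested. The edgeR test called 0 members higher and 0 lower, where 1.34% and 0.732% of all genes tested were called. DESeq2 and limma also called 0, both without the block. With the replicate block, edgeR called 3 members higher and 8 lower, against 10.3% and 7.89% of all genes tested. At an unadjusted p under 0.05, 3 members were higher and 9 lower, against 1332 and 1068 of the 12428 genes tested. Groups did not overlap for 14 members higher in STAT3KO (18.4%, against 24.9% of all genes) and for 30 lower (39.5%, against 24.8%). Within the libraries of replicate 1, the median difference of the members' log2 CPM was -0.015, with 35 members above 0 and 41 below. Within those of replicate 2 it was -0.11, with 24 above 0 and 52 below.

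Of the 6 members with the lowest p-values in CD8 T cells (3 in each direction), Mrpl12 was also among those of CD4 T cells. Mrpl32, whose precursor is cleaved in the matrix before it joins the ribosome, had 40.2 and 40.9 CPM in WT and 56.9 and 50.9 CPM in STAT3KO (edgeR log2 fold change 0.41, SE 0.12, adjusted p 0.119). Mrpl50 had 43.1 and 41.8 CPM in WT and 53.2 and 49.6 CPM in STAT3KO (log2 fold change 0.28, edgeR adjusted p 0.175), and Mrpl1 had 33.8 and 28.1 against 40.6 and 36.9 CPM (log2 fold change 0.33, edgeR adjusted p 0.224). In the opposite direction, Mrps27, a small subunit protein with pentatricopeptide repeats, had 25.9 and 22.4 CPM in WT and 16.8 and 19.4 CPM in STAT3KO (edgeR log2 fold change -0.41, SE 0.13, adjusted p 0.143). Mrps7 had 42.2 and 42.3 against 31.2 and 35.0 CPM (edgeR log2 fold change -0.35, SE 0.12, adjusted p 0.1602). Mrpl12 had 45.7 and 47.4 CPM in WT and 39.5 and 33.9 CPM in STAT3KO (edgeR log2 fold change -0.34, SE 0.11, adjusted p 0.151), close to its value in CD4 T cells. All 6 had groups that did not overlap, and all 6 were called with the replicate block (edgeR adjusted p 0.0248 to 0.0471). Of all genes tested, 24.9% were higher and 24.8% lower without overlap, and 10.3% and 7.89% were called with the block. These 6 were likewise chosen by their p-values in the same libraries, so neither statement is separate support for a change.

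The STAT3KO effects in CD4 and CD8 T cells come from separate libraries and can be set side by side. Whether CD4 and CD8 libraries came from the same recipients was not given in the sources used here. Between CD4 and CD8 libraries, deviations from the group means had r 0.671 in WT and 0.642 in STAT3KO over all genes. The effects can therefore not be taken as independent of each other. Mrpl17 had a log2 fold change of -0.47 in CD4 and of -0.28 (edgeR adjusted p 0.219) in CD8 T cells, where it went from 25.8 and 25.8 to 20.6 and 21.9 CPM. Mrpl54 had -0.44 and -0.31, Mrpl39 0.44 and 0.28, and Mrps18b -0.60 and -0.59 with SE of 0.25 and 0.24. Of the 76 members, 33 were below 0 in both cell types, 28 above 0 in both and 15 of opposite sign, so that 80.3% had the same sign, against 74.1% of all genes tested. Pearson's r between the effects was 0.75 across the 76 members and 0.63 across the 12428 genes tested, each point being a gene measured in the same 8 libraries. Genes are not independent replicates, and no p is given.

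**Figure D2:**
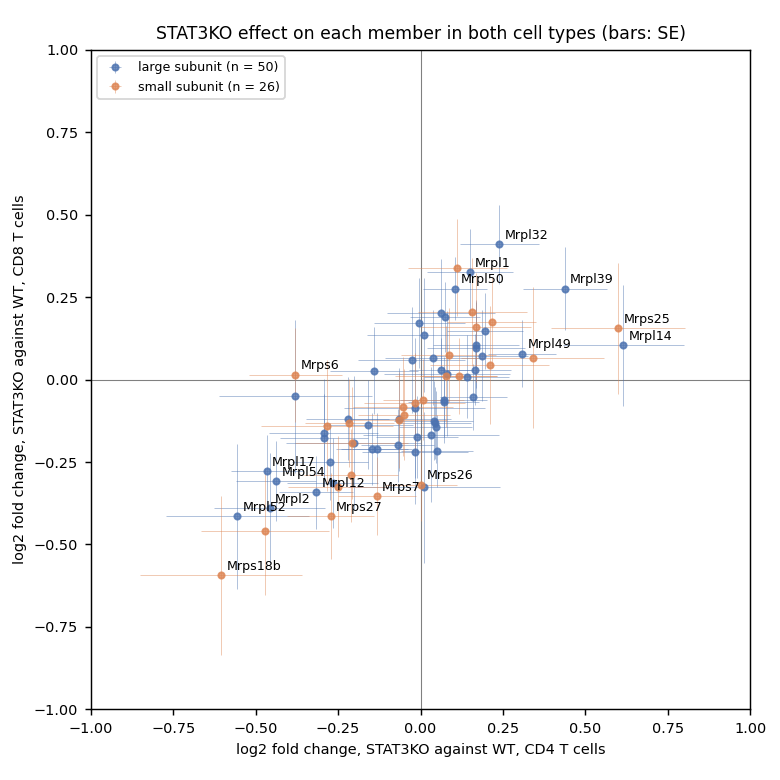
Log2 fold change of STAT3KO against WT in CD4 (horizontal) and CD8 T cells (vertical) for 50 large and 26 small subunit members, with bars of 1 SE. Most points lie within 0.5 of 0 on both axes, and Mrpl17, the member called in CD4 T cells without the replicate block, is at -0.47 and -0.28.

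The difference of the STAT3KO effects was then tested as an interaction, CD8 minus CD4. No member was called in either direction, and neither was any other gene (0% and 0% of all genes tested). The edgeR test, DESeq2 and limma each called 0 members, and 0 members had an unadjusted p under 0.05. At that p, 413 of the 12428 genes tested had a difference above 0 and 569 below. With the replicate block, edgeR again called 0 members, while 1.16% and 2.08% of all genes tested were called higher and lower. The smallest adjusted p among the members was 0.690, in Mrps26, with a log2 difference of -0.32 (SE 0.15). Mrps26 had 29.98 and 27.5 against 28.9 and 28.6 CPM in WT and STAT3KO CD4 libraries, and 34.8 and 33.9 against 29.1 and 26.0 CPM in CD8 libraries. Mrps6 had a log2 difference of 0.39 (SE 0.20) and Mrpl14 of -0.51 (SE 0.26), both with an edgeR adjusted p of 0.718. For Mrps18a the log2 difference was -0.27 (SE 0.15, edgeR adjusted p 0.803). The absence of a call does not show that the effects were alike.

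CD8 and CD4 T cells were compared within each genotype, to describe how the members differ between the lineages. These comparisons use the same libraries as the STAT3KO comparisons. In WT, 9 members were higher in CD8 T cells and 2 were lower. The shift extended over most of the group: 64 of 76 members had a log2 fold change above 0 and 12 below, with a median of 0.196 (0.0011 for all genes tested). Libraries of CD8 and CD4 did not overlap for 42 members higher in CD8 T cells (55.3%, against 29.2% of all genes tested) and for 3 lower (3.95%, against 30%). The calls were 11.8% and 2.63% of the members, against 12.2% and 11.6% of all genes. With the replicate block, 23 members were called higher and 3 lower, against 20.6% and 21.5% of all genes. Within the libraries of replicate 1 the median difference was 0.27, and within those of replicate 2 it was 0.14. At an unadjusted p under 0.05, 19 members were higher and 2 lower, against 2238 and 2253 of the 12428 genes tested. For the alternatives that follow, the shares of all genes called are not given. The count of called members fell to 1 without WT CD8 replicate 1, 2 without WT CD8 replicate 2 and 2 with only the 4 WT libraries, and was between 4 and 7 without any 1 of the others, whereas the median stayed between 0.096 and 0.267.

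The 9 members called higher in WT CD8 T cells all belong to the large subunit, as do 50 of the 76 members tested. Mrpl27, the bacterial L27 homologue next to the peptidyl transferase centre, went from 14.02 and 15.2 CPM in WT CD4 to 19.9 and 21.8 CPM in WT CD8 libraries (edgeR log2 fold change 0.51, SE 0.13, adjusted p 0.0280). Mrpl10, the base of the stalk, went from 48.6 and 44.9 to 63.6 and 61.0 CPM (edgeR log2 fold change 0.41, SE 0.10, adjusted p 0.0184). Mrpl12, which binds Mrpl10, went from 35.0 and 35.1 to 45.7 and 47.4 CPM (edgeR log2 fold change 0.41, SE 0.11, adjusted p 0.0342). Log2 fold changes were 0.48 in Mrpl42, 0.47 in Mrpl40, 0.46 in Mrpl49, 0.42 in Mrpl15, 0.39 in Mrpl16 and 0.36 in Mrps18a. Every 1 of these 9 genes had higher values in each WT CD8 library than in each WT CD4 library, as did 29.2% of all genes tested. With 1 of the WT libraries left out, each of the 6 that had the highest log2 fold changes lost its call in at least 3 of the 4 cases, with Mrpl27 reaching an edgeR adjusted p of 0.133 without WT CD8 replicate 2.

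The members called lower in CD8 T cells went against the rest. Mrps6, the homologue of bacterial S6, had 34.4 and 30.01 CPM in WT CD4 and 21.5 and 17.3 CPM in WT CD8 libraries (edgeR log2 fold change -0.73, SE 0.14, adjusted p 0.00855), the largest change of any member in this comparison, and it was called under all the alternatives tried. In STAT3KO, it had 24.7 ± 0.381 CPM in CD4 and 19.6 ± 1.45 CPM in CD8 libraries (n = 2, SD; log2 fold change -0.33, edgeR adjusted p 0.176). Mrpl24 had 102 and 116 CPM in WT CD4 and 73.7 and 77.6 CPM in WT CD8 libraries (edgeR log2 fold change -0.52, SE 0.11, adjusted p 0.0104), a call lost without WT CD8 replicate 1 (edgeR adjusted p 0.0696). In STAT3KO it had 109.7 and 119.5 against 89.6 and 83.1 CPM (edgeR log2 fold change -0.41, SE 0.11, adjusted p 0.0452). In Mrpl24, 33.0% of 51-base stretches also occur in other genes, mostly in Rrnad1 on the opposite strand, which had 14.2 to 20.4 CPM and was not called (log2 fold change -0.11 in WT, edgeR adjusted p 0.603, and -0.41 in STAT3KO, edgeR adjusted p 0.0791). In Mrps6, 32.2% of the stretches also occur in Gm49711, for which no value was tested.

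In STAT3KO T cells, CD8 against CD4 gave 2 members higher and 1 lower, against 5.84% and 6.67% of all genes tested. Besides Mrpl24, these were Mrpl10 and Mrps22. Mrpl10 had 49.7 and 48.1 CPM in CD4 and 63.8 and 63.6 CPM in CD8 libraries (edgeR log2 fold change 0.38, SE 0.10, adjusted p 0.0411). Mrps22, a small subunit protein specific to mitochondria, had 22.4 and 24.95 against 36.7 and 32.7 CPM (edgeR log2 fold change 0.55, SE 0.15, adjusted p 0.0488). Again 64 members were above 0 and 12 below, with a median of 0.1599 (0.0018 for all genes tested). Groups did not overlap for 38 members higher in CD8 T cells (50%, against 29.6%) and for 6 lower (7.89%, against 28.7%). At an unadjusted p under 0.05, 10 members were higher and 2 lower, against 1688 and 1728 of the 12428 genes tested. All 3 calls were lost when either STAT3KO CD4 library, either STAT3KO CD8 library or either WT CD8 library was left out, where the count was 0. With the replicate block, 8 members were called higher and 3 lower, against 14.4% and 15.3% of all genes tested, and the median difference was 0.22 within the libraries of replicate 1 and 0.068 within those of replicate 2.

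The WT and STAT3KO comparisons of CD8 with CD4 share no library. Above 0 in both were 58 members, 29 were higher without overlap in both, and Mrpl10 and Mrpl24 were called in both, in the same direction. Of the 12428 genes tested, 6230 were above 0 in WT and 6243 in STAT3KO. The counts in both genotypes at once are not given for all genes, so those of the members have no share to be set against. By class, the medians in WT and STAT3KO were 0.25 and 0.22 for large subunit homologues of bacterial proteins, 0.14 and 0.14 for mitochondria-specific large subunit proteins, 0.17 and 0.12 for small subunit homologues, and 0.27 and 0.083 for mitochondria-specific small subunit proteins. The plot by class shows that each class straddles 0 with most of its members above. Among 5 stalk proteins, Mrpl10 and Mrpl12 were called in WT and Mrpl10 in STAT3KO. Of the 8 proteins of the central protuberance, Mrpl27 and Mrpl40 were called in WT and none in STAT3KO, and of the 5 tested exit tunnel proteins, Mrpl24 was called lower in both.

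**Figure D3:**
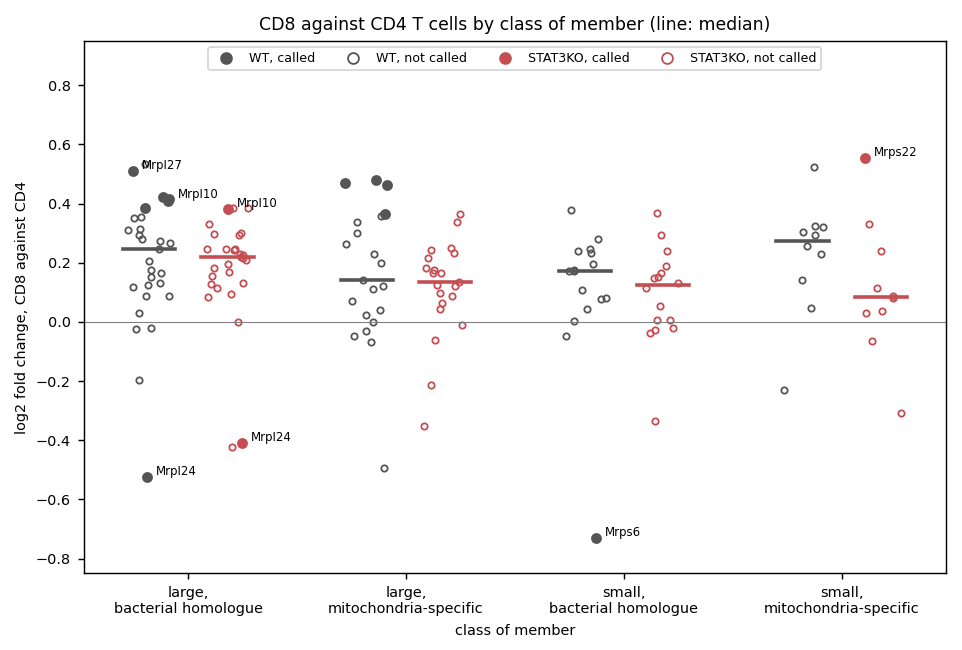
Log2 fold change of CD8 against CD4 T cells for each member, by class, in WT (grey) and STAT3KO (red). Filled points were called, lines are medians of the class: all 8 medians are above 0, between 0.083 and 0.27, and Mrps6 at -0.73 in WT is the lowest point.

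Library by library, the sum of the members was higher in CD8 T cells. Their counts summed to 2449 and 2755 CPM (WT) and 2452 and 2700 CPM (STAT3KO) in CD4 T cells, and to 2872 and 3006 CPM (WT) and 2900 and 2803 CPM (STAT3KO) in CD8 T cells. All 4 CD8 libraries were above all 4 CD4 libraries. A member's log2 CPM, less its own mean over the 8 libraries, had a median of -0.15 and 0.016 (WT) and -0.17 and -0.033 (STAT3KO) in CD4 libraries, against 0.094 and 0.16 (WT) and 0.058 and 0.052 (STAT3KO) in CD8 libraries. The CD4 libraries of replicate 1 were thus the lowest in both genotypes. The same quantity over all genes tested stayed between -0.0045 and 0.015. As given above, Cd22 was higher in the CD4 libraries, and Cd79b, Eomes and Cd68 were higher in the CD8 libraries. The other 4 of the 5 macrophage genes were higher in replicate 2 of every group. The part of all these markers in the differences was not tested.

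**Figure D4:**
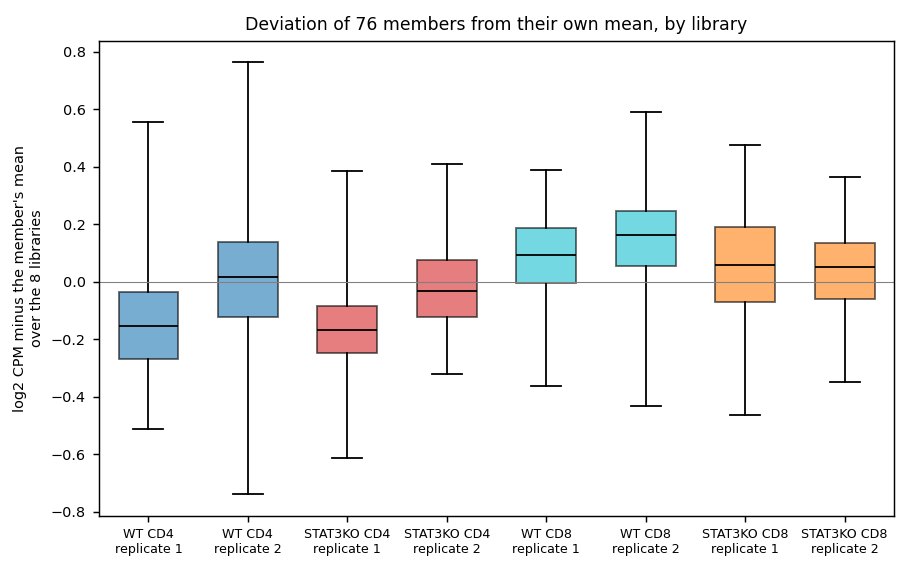
Log2 CPM of the 76 tested members less each member's mean over the 8 libraries. Boxes show the quartiles with the median as a line, and whiskers the lowest and highest member: medians run from -0.17 and -0.15 in the CD4 libraries of replicate 1 to 0.16 in WT CD8 replicate 2.

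**Figure D5:**
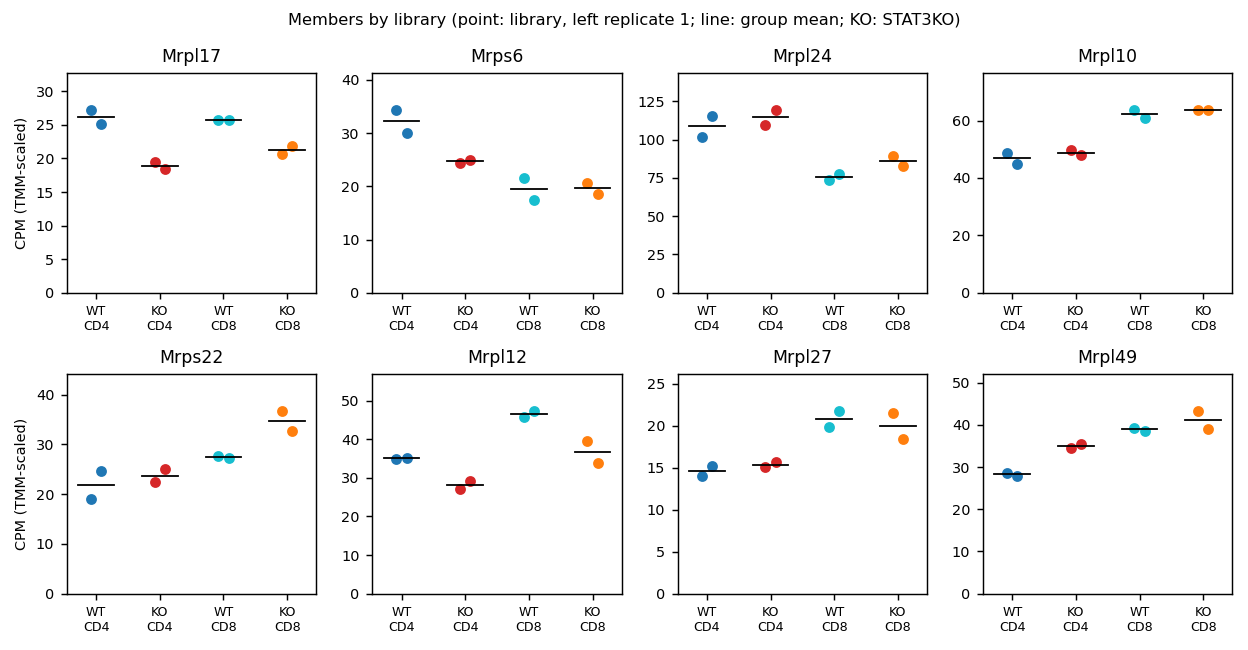
CPM of 8 members in each library (points, replicate 1 left and replicate 2 right, with the group mean as a line). The points of Mrpl17 lie lower in STAT3KO than in WT groups, those of Mrps6 and Mrpl24 lower in CD8 than in CD4 groups, and those of Mrpl10, Mrpl27 and Mrpl12 higher in CD8 groups of the same genotype.

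Other genes of mitochondrial gene expression were taken as lists beside the members. In CD4 T cells, STAT3KO changed 1 gene in each direction among 29 genes of mitoribosome assembly and ribosomal RNA modification (3.45% each, against 6.54% and 5.08% of all genes tested). Tfb1m, which methylates the small subunit ribosomal RNA, rose from 6.54 and 6.47 to 11.6 and 13.1 CPM (edgeR log2 fold change 0.93, SE 0.17, adjusted p 0.0150). Rcc1l, an assembly factor of the mitoribosome, fell from 17.8 and 18.0 to 10.2 and 9.32 CPM (edgeR log2 fold change -0.88, SE 0.13, adjusted p 0.00630). Ears2, the mitochondrial glutamyl-tRNA synthetase, fell from 10.2 and 11.7 to 6.203 and 6.81 CPM (edgeR log2 fold change -0.75, SE 0.16, adjusted p 0.0256). Tfb1m, Rcc1l and Ears2 had log2 fold changes of the same sign in CD8 T cells (0.67, -0.46 and -0.62), none of which passed (edgeR adjusted p 0.0876 to 0.108).

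None of the 15 mitochondrial translation factors, of the 17 genes of mitochondrial transcription, RNA processing and DNA upkeep, or of the 7 tested regulators was called in a STAT3KO comparison by edgeR without the block. At an unadjusted p under 0.05 there were 1, 4 and 1 such genes in CD4 and 1, 4 and 2 in CD8 T cells. Of the 12428 genes tested, 1849 were higher and 1566 lower at that p in CD4, and 1332 and 1068 in CD8 T cells. Likewise the 5 subunits that carry other names, among them Dap3 and Ptcd3, gave no call, with 1 gene at an unadjusted p under 0.05 in each cell type. Of the regulators, Myc, a transcription factor that drives ribosome production in activated T cells, had 167 and 65.3 CPM in WT and 96.0 and 42.4 CPM in STAT3KO libraries of CD4 T cells (edgeR log2 fold change -0.75, SE 0.54, adjusted p 0.427), and 139 and 75.8 against 76.7 and 48.7 CPM in those of CD8 T cells (edgeR log2 fold change -0.77, SE 0.54, adjusted p 0.499). Its groups overlapped in CD4 and CD8 T cells, and in each group the library of replicate 1 was the higher. Within each replicate number, the STAT3KO library had less Myc than the WT library in both cell types.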

How the data were processed

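RNA was sequenced from 8 libraries of sorted donor T cells, 2 for each cell type and genotype, grouped by the genotype and cell type in the labels. Per the study's methods, the authors aligned reads to mm10 with STAR, and deposited raw read counts per RefSeq gene (HTSeq) and RPKM values, which the authors scaled by exon length and library size. Growth and treatment fields of the labels describe another cell type and were not used.

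The deposited counts were filtered with filterByExpr (minimum count 10, leaving 12428 genes), scaled by TMM, and tested with edgeR 4.0.16 (R 4.3.3) by the quasi-likelihood test, two-sided, in 1 fit of all 8 libraries with 1 coefficient for each group (4 residual degrees of freedom). Genes with a Benjamini-Hochberg adjusted p under 0.05 over all genes tested were called, as higher or lower by the sign of the log2 fold change. The fit was tested on simulated data. Depth was 20171396 to 23282757 counts per library. Alternatives were RLE size factors, total counts, no filter, the replicate block, DESeq2 1.42.0, limma 3.58.1 on log2(RPKM + 1) and log2(RPKM + 0.1), only the 4 libraries compared, and leaving out each library.

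The members and lists were chosen with earlier results of these data known. Members were named if called (at most 6 in each direction), if among the 3 lowest p-values in each direction of a STAT3KO comparison or of their difference, if among the 5 highest or lowest levels, or for their known role (Mrpl12, Mrpl45, Mrps12, Mrps18a, Mrps18b, Mrps18c, Mrps30, Mrps36). Of each list of other genes, called genes were named, besides Stat3, Cd4, Cd8a and Myc, except for 1 result that is not reported here. Mrpl16, Mrpl46, Mrps11, Rrnad1 and the members named for shared stretches, motifs or spread were added after their values were seen. Promoters came from the RefSeq table for GRCm38.p6, gene positions and neighbours from the deposited tables, and exons and shared stretches from GENCODE on the same build.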

Additional observations from a re-analysis of the deposited data

Results flagged for a closer look

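Mrpl43, a large subunit protein specific to mitochondria, was singled out because every STAT3KO library lay above every WT library in CD4 T cells and below in CD8 T cells. It had 33.2 and 31.9 CPM in WT and 33.6 and 33.5 CPM in STAT3KO libraries of CD4 T cells (log2 fold change 0.042), and 41.9 and 41.5 against 40.9 and 35.2 CPM in those of CD8 T cells (log2 fold change -0.13). The difference of the effects, CD8 minus CD4, was -0.17 on the log2 scale, and the interaction test of edgeR did not call it (p 0.292, adjusted p 0.957).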

How the results depend on the processing

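Counts of called members depended on the processing more than the medians did. Except for the replicate block, the shares of all genes called under the alternatives are not given. A change in these counts can therefore not be told from a change in the calls over all genes. For STAT3KO against WT in CD4, where 1 member was called, the count was 2 with total counts, 2 with DESeq2, 0 with only the 4 libraries compared and 0 to 5 with 1 library left out (5 without WT CD4 replicate 1, otherwise 0), and the median ran from -0.136 to 0.0806. For CD8 against CD4 in WT, with 11 called, it was 6 with no filter, 2 with only the 4 libraries and 1 to 7 with 1 library left out, with a median of 0.0962 to 0.267. For CD8 against CD4 in STAT3KO, with 3 called, it was 1 with total counts, with no filter and with limma on log2(RPKM + 1) or log2(RPKM + 0.1), and 0 to 3 with 1 library left out. The median difference of the STAT3KO effects ran from -0.134 to 0.0441. With the replicate block, the counts were 13 and 11 for STAT3KO against WT in CD4 and CD8 (9 and 8 of them lower), 26 and 11 for CD8 against CD4 in WT and STAT3KO, and 0 for the difference of the effects. The shares of all genes called higher and lower rose as well. For STAT3KO against WT they were 16.5% and 13.7% in CD4 and 10.3% and 7.89% in CD8 T cells. For CD8 against CD4 they were 20.6% and 21.5% in WT and 14.4% and 15.3% in STAT3KO, and for the difference 1.16% and 2.08%. The fit without the block was kept as the first reading, since the labels do not say what a number shares. The log2 fold changes of named members changed sign under no alternative, and 362 such values stayed on the same side of the threshold, 80 lost and 16 gained a call. Except where a setting uses fewer libraries or tests more genes, the cause was not tested. Counting error alone, if counts followed a Poisson distribution, would give a member's log2 CPM an SD of 0.0257 (Mrpl9) to 0.143 (Mrps33), with a median of 0.0549, against the median of 0.136 found within groups, and 4 of 76 members had an SD within groups no larger than their counting error.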
